A study of Mus musculus with 2 samples.

Results

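The binding sites of endogenous XBP1 were examined in AtT-20 cells, a mouse pituitary corticotrope tumor cell line. The authors' list for this factor holds 258 peaks, all of which were used, out of 6742 peaks in the 2 lists of the study. The other 6484 peaks are those of Creb3l2 and serve here as a comparison. For XBP1, unmodified AtT-20 cells at passage 17 were used with the XBP1 antibody M-186 and an IgG ChIPseq as control. For Creb3l2, AtT-20 cells at passage 7 that express the cleaved form of the protein with a 3x FLAG tag were used with the FLAG antibody M2. Both populations grew in DMEM with FBS and the labels name no ER stress agent for either. Each list comes from 1 library made of pooled immunoprecipitates, so there is no replicate error, no test was run, and shares carry 95% Wilson intervals that cover counting error only. As AtT-20 is a single tumor line, the sites are those of these cells and not of normal corticotropes.

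XBP1 is a bZIP transcription factor of the unfolded protein response (UPR), the program by which cells adjust the endoplasmic reticulum (ER) to its protein load. Its mRNA is cut by the ER sensor Ire1 and religated to code for the active factor, which binds sites with an ACGT core and, together with NF-Y, the ER stress response element (ERSE). In secretory cells XBP1 is known for the expression of chaperones, of ER-associated degradation and of the machinery that moves proteins into and out of the ER.

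The 2 strongest XBP1 peaks were at Hspa5 and Hsp90b1, which code for the ER chaperones BiP and Grp94 and are classical XBP1 targets. The Hspa5 peak (chr2:34626858-34628311, mm9) held 595 tags, or 409 tags per kb of peak, with a fold enrichment of 78.8 over IgG. The Hsp90b1 peak (chr10:86167602-86169137) held 537 tags, or 350 tags per kb, with a fold enrichment of 78.5. The next highest fold enrichment was 41.6. Over the whole list the median was 48.8 tags per kb, with quartiles of 38.1 and 79.1, and the median fold enrichment was 7.25, with quartiles of 5.53 and 11. The list thus has a short head and a long tail, with 72 of the 258 peaks at a fold enrichment of at least 10.

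The elements known to be bound by XBP1 were present in the promoters at these peaks. They are shown because they come from the sequence alone and were not used to place the peaks. The sequences are from RefSeq (GRCm38.p6) and are printed on the strand that reads CCAAT before CCACG, with these letters of the ERSE in capitals.
Hspa5, chr2:34772020-34772048, plus strand: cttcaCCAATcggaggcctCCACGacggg
Hsp90b1, distal element, chr10:86705633-86705661, minus strand: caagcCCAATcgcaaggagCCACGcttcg
Hsp90b1, proximal element, chr10:86705528-86705556, plus strand: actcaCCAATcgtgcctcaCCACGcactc
Canx, chr11:50325795-50325823, minus strand: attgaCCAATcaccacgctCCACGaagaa
Calr, chr8:84847070-84847098, plus strand: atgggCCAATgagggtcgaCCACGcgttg
Alg12, chr15:88819515-88819543, minus strand: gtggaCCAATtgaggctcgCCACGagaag
Pan2, chr10:128303282-128303310, minus strand: cgcttCCAATcagcgggggCCACGggctc
Syvn1, chr19:6046527-6046555, plus strand: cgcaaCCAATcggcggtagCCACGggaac
Hnrnpa3, chr2:75659012-75659040, minus strand: ctcgaCCAATggcgagagcCCACGtcggg
All of these elements lie upstream of the RefSeq TSS. The Hspa5 element spans the bases from -70 to -42 relative to the TSS, and those of Hsp90b1 span -217 to -189 and -112 to -84.

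The second form of the element, ERSE-II, was found in 4 other promoters with an XBP1 summit, and its letters are in capitals.
Herpud1, chr8:94386372-94386392, plus strand: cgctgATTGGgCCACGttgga
Dnajb11, chr16:22857847-22857867, plus strand: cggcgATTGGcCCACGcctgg
Krtcap2, chr3:89246485-89246505, plus strand: cacggATTGGaCCACGgacgg
Lrif1, chr3:106721609-106721629, plus strand: tgtcgATTGGaCCACGtcata
Herpud1, an ER membrane protein of the degradation machinery, has the element from -57 to -37 relative to the TSS. In Dnajb11 and Krtcap2 it lies just downstream of the TSS, from base 2 to 22 and from base 12 to 32.

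Seen from the sequence, 28 protein-coding genes have an ERSE in a RefSeq promoter, which spans 250 bases before to 50 bases after the TSS. Of the 24 that could be measured, 9 had an XBP1 summit within 1000 bp of a TSS, or 37.5% (interval 21.2 to 57.3). For ERSE-II the count was 4 of 10 genes, or 40% (interval 16.8 to 68.7). The background for both is 0.661%, the share of the 18766 measured protein-coding genes with an XBP1 summit at the same distance. The motifs were chosen with earlier results of these data known. The ninth gene with an ERSE, Creld2, codes for an ER protein and shares its peak and its element with the neighbouring Alg12. Among the genes with an ERSE and no XBP1 summit were Derl3, Dnajc3 and Pdia6, whose products act in the ER and which were picked out after their values were seen.

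The peaks are given in mm9, whereas the annotation at hand (GENCODE M21) is in GRCm38. The summits were therefore placed on the annotation by a displacement estimated from the Creb3l2 summits, which served for naming the neighbouring genes and not for reading sequence. Of the 258 XBP1 summits, 233 could be placed and 25 could not. Displacements from alternate anchors differed by a median of 30 bp and by up to 375 bp in a single stretch, so that a distance to a TSS can be off by that much. For 33 of the placed summits fewer than 3 of the 10 flanking Creb3l2 summits were at a TSS. Only 4 of these 33 were within 1000 bp of a protein-coding TSS, and the share of sites away from TSSs may thus be too high.

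About as many XBP1 summits were at TSSs as away from them. Of the 233 placed summits, 118 were within 1000 bp of the TSS of an annotated transcript, or 50.6% (interval 44.3 to 57.0). With 53.9% of its 5956 placed summits at that distance, Creb3l2 stood within this interval, but the Creb3l2 share is used by the placing and is only a description. In 102 cases the TSS was that of a protein-coding gene and in 16 that of another transcript only. When the XBP1 peaks that overlap a Creb3l2 peak were left out, 39 of 117 summits, or 33.3%, were at a TSS of any annotated transcript. Creb3l2 summits moved by 50000 bp gave 5.29%, but for protein-coding TSSs only. The share of moved XBP1 summits was not computed. Away from TSSs, 37 summits were in introns, 5 in exons and 73 between genes.

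XBP1 summits concentrated just upstream of TSSs. Of the 102 summits at a protein-coding TSS, 77 were within 200 bp of it and 77 were upstream of it, each 75.5% (interval 66.3 to 82.8). The median position was -57.5 bp, with quartiles of -123.8 and -1.75 bp. The closest of all annotated protein-coding TSSs was taken, so that the distance to the RefSeq TSS can differ. The Hspa5 summit was at 25 bp from the closest TSS and at -95 bp from the RefSeq TSS. For Creb3l2, 67.0% of the 2897 summits at a protein-coding TSS were upstream of it, a share that lies within the interval of XBP1.

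**Figure D1:**
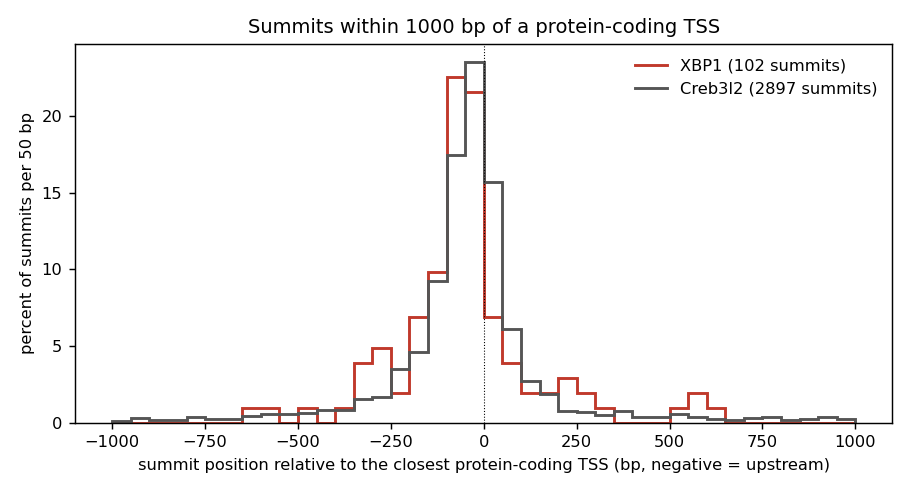
Position of summits relative to the closest protein-coding TSS, in bp with negative values upstream, as the percent of the summits within 1000 bp that fall in each 50 bp step, for XBP1 (102 summits, red) and Creb3l2 (2897 summits, grey). Both rise to their highest steps in the 100 bp upstream of the TSS, and the Creb3l2 summits were used to place the peaks.

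Genes of the ER and the secretory pathway were frequent among the genes at XBP1 peaks. In all, 124 protein-coding genes had an XBP1 summit within 1000 bp of a TSS, through 102 peaks of which 22 served more than 1 gene. Of these 124 genes, 50 were in 6 lists of ER and secretory genes, or 40.3% (interval 32.1 to 49.1). Genes of these lists can share a peak, as Alg2 and Sec61b do. When only the closest gene of each summit was counted, 46 genes of the lists remained. Counted from the lists, 50 of 180 measured genes were at an XBP1 summit, or 27.8% (interval 21.8 to 34.7), against the background of 0.661%. The lists here and below were chosen with earlier results of these data known, and Hspa5 and Hsp90b1 are among the 50 genes. The distance from the background is thus a description and not independent support. By tags per kb, 14 of the 47 placed peaks among the first 50 were at a gene of these lists, or 29.8% (interval 18.7 to 44.0), and 7 of the 53 placed peaks at ranks 201 to 258, or 13.2% (interval 6.55 to 24.8). These intervals overlap. By fold enrichment the counts were 17 of 47, or 36.2% (interval 23.97 to 50.5), and 4 of 54, or 7.41% (interval 2.92 to 17.6), with 6 of the first 20.

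**Figure D2:**
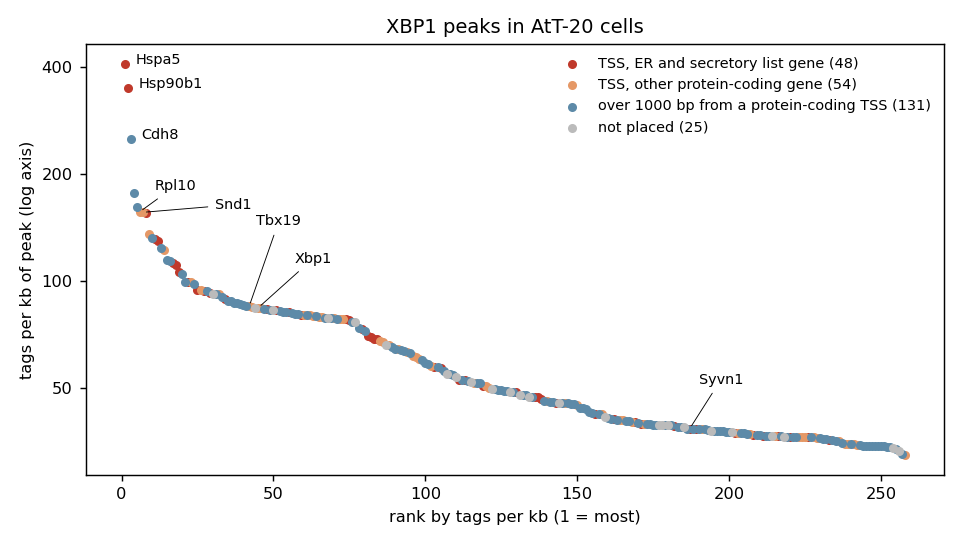
Tags per kb of each of the 258 XBP1 peaks (log axis) against its rank, with 1 for the most tags per kb, coloured by position. Hspa5 at 409 and Hsp90b1 at 350 tags per kb stand above all other peaks, and the 48 peaks at genes of the ER and secretory lists reach from the first rank into the tail.

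ER chaperones and folding enzymes had the highest share of genes with an XBP1 summit, 17 of 37 or 45.9% (interval 31.0 to 61.6). This interval overlaps those of the lists of ER entry, N-glycosylation, degradation, COPII vesicles and UPR regulators given below. After Hspa5 and Hsp90b1, the highest fold enrichments in this list were at Canx, which codes for the lectin chaperone calnexin, with 40.3 (183 tags), and at Sil1, the nucleotide exchange factor of BiP, with 31.4 (133 tags). Manf, an ER-resident secreted protein of the stress response, had a fold enrichment of 24.2 (147 tags). The list further held Calr, the soluble lectin chaperone calreticulin, with 14.5, and Dnajb9 and Dnajb11, which are co-chaperones of BiP, with 13.3 and 7.93. Hyou1, a large Hsp70-type chaperone, was at 6.41. The disulfide isomerases P4hb and Pdia5 had values of 5.04 and 5.51, although the P4hb peak held 156 tags per kb. The remaining members were Creld2, Erp44, Fkbp2, Ppib, Sdf2l1 and Txndc11, with fold enrichments from 4.88 at Sdf2l1 to 16.9 at Txndc11.

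For the entry of proteins into the ER, 9 of 26 genes of the signal recognition particle (SRP), translocon and signal peptidase were at an XBP1 summit, or 34.6% (interval 19.4 to 53.8). Serp1, which is associated with the Sec61 translocon, had a fold enrichment of 30.3 with 134 tags, and its peak also lies at the TSS of Eif2a. Spcs2, a subunit of the signal peptidase, was at 20.9 with 141 tags. The list also held the translocon subunits Sec61b and Sec61g, the translocon-associated proteins Ssr2, Ssr3 and Ssr4, and the signal peptidase subunits Sec11a and Sec11c. Among these, Ssr4 was at 13.2 and Ssr2 at 5.64.

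For N-glycosylation, by which sugar chains are added to proteins in the ER, the count was 10 of 36 genes or 27.8% (interval 15.8 to 44.0). Alg2, Alg12 and Dpagt1, which build the lipid-linked sugar chain, had fold enrichments of 19.3, 14.2 and 12.4. The subunits of the transferase complex at an XBP1 summit were Ddost, Krtcap2, Magt1, Ostc, Rpn2, Stt3a and Tmem258. Of these, Ostc reached 13.9 and Stt3a 11.4, whereas Ddost was at 5.47 with 106 tags per kb.

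In ER-associated degradation, 6 of 28 genes were at a summit, or 21.4% (interval 10.2 to 39.5). Selenos, which is part of the membrane complex for retrotranslocation, had the highest fold enrichment with 15.8, and Ubxn4 followed with 10.5. Herpud1 was at 7.78, the ubiquitin ligase Syvn1 at 5.76, the mannosidase-like Edem2 at 5.64, and the ubiquitin-conjugating enzyme Ube2g2 at 4.63. Syvn1 held 44 tags and Ube2g2 68.

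Along the way out of the ER, XBP1 summits were found at 7 of 28 genes of COPII vesicles, or 25% (interval 12.7 to 43.4). They were the coat subunits Sec23b, Sec24c and Sec31a, the exchange factor Preb, and the cargo receptors Lman2, Tmed9 and Tmed10. Their fold enrichments lay between 4.77 at Sec23b and 17.4 at Lman2. Among the 25 genes of the COPI coat, the KDEL receptors and the Golgi ARFs, which act in the return from the Golgi to the ER, Cope was at a summit, with a fold enrichment of 9.61. This share of 4% (interval 0.710 to 19.5) overlaps that of COPII. The background of 0.661% lies just below the interval of the 4%, but a single gene does not show an excess.

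**Figure D3:**
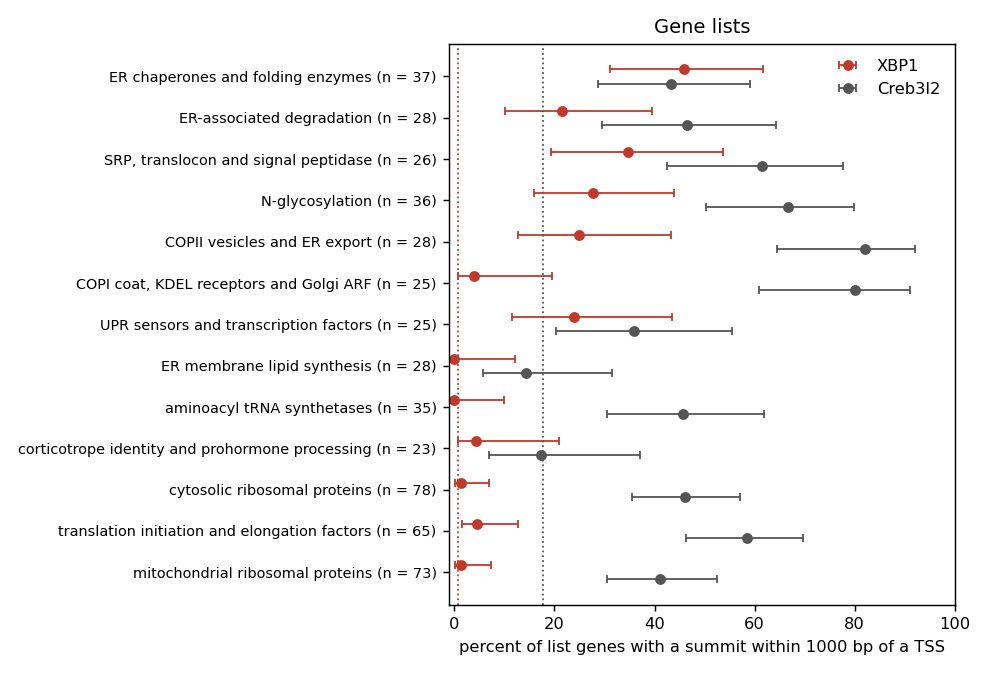
Percent of the measured genes of each list that have a summit within 1000 bp of a TSS, for XBP1 (red) and Creb3l2 (grey), with 95% Wilson intervals as bars and the share among all measured protein-coding genes as dotted lines (0.661% and 17.7%). For XBP1 the chaperone list is highest at 45.9%, with an interval that overlaps those of other ER and secretory lists. For Creb3l2 the lists of COPII and COPI genes are highest at 82.1% and 80%.

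Regulators of the UPR were themselves at XBP1 peaks. Of 25 genes, 6 had a summit, or 24% (interval 11.5 to 43.4), against the background of 0.661%. The Xbp1 gene (chr11:5420183-5421393) had a fold enrichment of 23.4 with 102 tags, and its summit was 192 bp downstream of the TSS. Eif2ak3, which codes for the ER sensor Perk, was at 12.9, and Creb3l2, an ER-bound bZIP factor, at 12.2 with 84 tags and a summit 340 bp upstream of the TSS (chr6:37391763-37393131). Atf4 and Creb3 had 5.64 and 5.91. Atf6, the third ER sensor, had 4.86 with 79.1 tags per kb. Neither the Xbp1 nor the Creb3l2 gene had a Creb3l2 summit within 1000 bp of a TSS. No gene of ER membrane lipid synthesis was at an XBP1 summit, at 0 of 28. With 3 taken as the most genes that a count of 0 allows, the share can be up to 10.7%. This does not set these genes below the background.

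Few genes of translation were at an XBP1 summit. Of 251 measured genes for cytosolic and mitochondrial ribosomal proteins, translation factors and aminoacyl tRNA synthetases, 5 had an XBP1 summit, or 1.99% (interval 0.854 to 4.58). This is low beside the 27.8% of the ER and secretory lists. The background of 0.661% lies below this interval, but some of the 5 genes are counted by their name or through a shared peak. An excess of translation genes thus cannot be read from it. Shared peaks occur in the ER and secretory lists as well, where 46 genes remained with the closest gene only. The 5 genes were Rpl10, Eif2a, Eif2ak3, Eef1akmt3 and Mrpl23. Rpl10, a protein of the large ribosomal subunit, was at a strong peak (chrX:71515293-71516517) with 192 tags and a fold enrichment of 39.2. Eif2a shares its peak with Serp1, and Eif2ak3 is a kinase of the UPR that its name places in this list. Eef1akmt3, a methyltransferase that is in the list by its name as well, shares its peak with Mettl1. None of the 35 tRNA synthetases had a summit. By the limit for a count of 0, this allows a share of up to 8.57% and does not set them below the background. In the same genes Creb3l2 had summits at 120 of 251, or 47.8% (interval 41.7 to 54.0), against a background of 17.7%. The Creb3l2 peaks as listed by the authors and placed here may miss bound genes, so that this count can be too low. The XBP1 counts rest on the same placing and can be too low as well.

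Of 23 genes of corticotrope identity and prohormone processing, 1 was at an XBP1 summit, or 4.35% (interval 0.772 to 20.99), against the background of 0.661%. It was Tbx19, which codes for the corticotrope transcription factor Tpit, with a fold enrichment of 5.87 and 177 tags (chr1:167082269-167084351) and a summit 245 bp downstream of the TSS. Pomc was among 4 genes of this list that lie outside the stretches in which peaks could be placed.

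Other strong peaks at TSSs were at genes outside these lists. Snd1, which codes for a component of RNA-processing complexes, had a fold enrichment of 38.2 with 224 tags (chr6:28429470-28430903). Slc33a1, the acetyl-CoA transporter of the ER membrane, was at 35.4 with 199 tags (chr3:63767984-63769445). Pan2, a subunit of a deadenylase, was at 34.7 with 180 tags (chr10:127739592-127741063). The peak at chrX:20374947-20375719, with 96 tags and a fold enrichment of 21.5, was 493 bp downstream of the TSS of a transcript of the kinase gene Araf that is not annotated as coding. Hnrnpa3, an RNA-binding protein, with 20.9 and Cdk5rap3, an adaptor of the UFM1 ligase, with 18.7 were picked out after their values were seen. In all, 63 of the 124 genes were in none of the lists.

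The 5 strongest peaks more than 1000 bp from any annotated TSS included peaks as strong as those at promoters. The peak at chr8:101924031-101925223 had 299 tags, or 251 tags per kb, which was less only than at Hspa5 and Hsp90b1, and a fold enrichment of 25.1, and fell in an exon of the cadherin gene Cdh8. The peak at chr7:3523932-3525523 had 281 tags and a fold enrichment of 41.6 and lay 43003 bp from the closest protein-coding TSS, that of Oscar. The peak at chr1:31492910-31494150 had 201 tags and a fold enrichment of 39.5, with the closest protein-coding TSS, that of Pih1d3, at 213962 bp. Closer to genes were chr2:158222304-158223857, at 36.5 with 206 tags and 12454 bp upstream of Ralgapb, and chr7:106508056-106509261, at 28.2 with 138 tags and 6996 bp upstream of Serpinh1. Serpinh1 codes for Hsp47, the collagen chaperone of the ER. Of the 5 peaks, only the one in Cdh8 overlapped a Creb3l2 peak. In the peaks near Oscar and Ralgapb, 2 of the 10 flanking Creb3l2 summits were at a TSS, so that their positions are less sure than those of the other 3, with 4 to 7.

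The peaks at TSSs were stronger than those away from them at the median, with wide overlap. Peaks at genes of the ER and secretory lists had a median fold enrichment of 10.0 (quartiles 7.03 and 14.8). Peaks at other protein-coding TSSs had a median of 7.01 (quartiles 5.61 and 12.1), and those more than 1000 bp from a protein-coding TSS a median of 6.71 (quartiles 5.2 and 9.13). As the quartiles overlap, a single peak cannot be assigned by its strength.

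Motifs were counted on both strands in the 84 RefSeq promoters of protein-coding genes matched to an XBP1 summit within 1000 bp. The other summits among the 102 at a protein-coding TSS had no such promoter or shared one. Some matched summits lie outside the promoter sequence, as at Ftl1 at 805 bp, so that the shares describe promoters near a peak. These promoters were compared with the 2207 promoters at a Creb3l2 summit and no XBP1 summit and with all 20150 promoters. The core ACGT was in 64.3% of XBP1 promoters (interval 53.6 to 73.7), 50.8% of Creb3l2 promoters and 33.4% of all promoters. The XBP1 core CCACGT, which contains ACGT, was in 35.7% (interval 26.3 to 46.4), 17.3% and 9.22%. CCACG, the half-site of the ERSE, was in 72.6%, 54.8% and 38.2%. The E-box CACGTG was in 15.5% (interval 9.27 to 24.7), 12.5% and 8.03%. TGACGTGG, the core of the UPR element, was in 3 of the 84 promoters, or 3.57% (interval 1.22 to 9.98), in 1.99% of Creb3l2 promoters and in 0.734% of all promoters.

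CCAAT, the site of NF-Y, set the XBP1 promoters apart from those of Creb3l2 without XBP1. It was in 67.9% of the XBP1 promoters (interval 57.3 to 76.9), whereas Creb3l2 promoters with 36.2% (interval 34.2 to 38.2) stood near the 37.8% of all promoters. The full ERSE was in 8 of the 84 XBP1 promoters, or 9.52% (interval 4.90 to 17.7), and in 2 of the 2207 Creb3l2 promoters. The GC content was similar, with medians of 60.2% for XBP1, 60.7% for Creb3l2 and 57.0% for all promoters. Within the XBP1 promoters, CCAAT was in 75% of the 40 at genes of the ER and secretory lists and in 61.4% of the 44 others, and these intervals overlap. CCAAT was in 64.4% of the 59 XBP1 promoters whose peak overlaps a Creb3l2 peak (interval 51.7 to 75.4). In the 25 others it was in 76% (interval 56.6 to 88.5), and these intervals overlap as well.

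**Figure D4:**
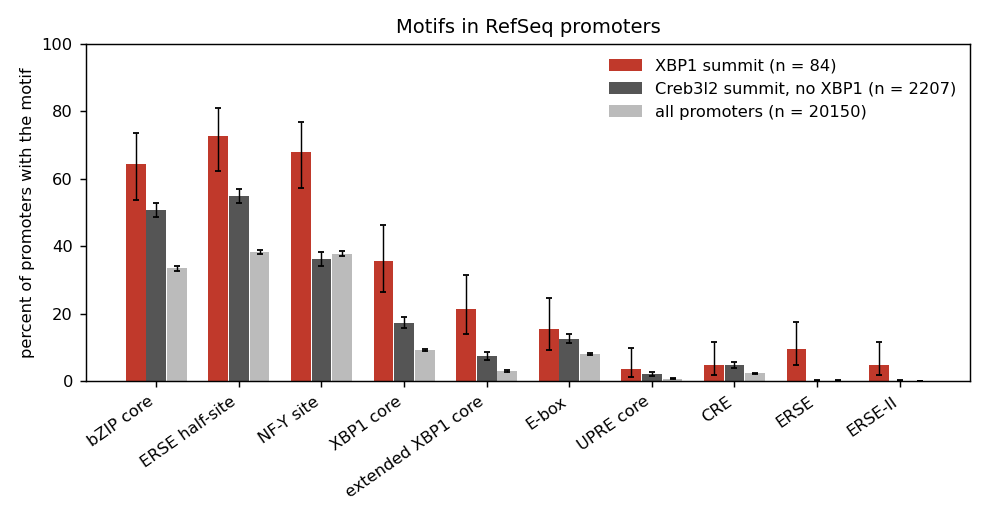
Percent of RefSeq promoters that hold each motif on either strand, for promoters at an XBP1 summit (84, red), promoters at a Creb3l2 summit and no XBP1 summit (2207, dark grey) and all promoters of protein-coding genes (20150, light grey), with 95% Wilson intervals. The NF-Y site stands at 67.9% in the XBP1 promoters and at 36.2% in the Creb3l2 promoters, and the ERSE at 9.52% in the XBP1 promoters.

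In the 54 promoters with ACGT, the closest copy was at a median of 52 bp from the summit, and in 30 of them it was within 60 bp. The median was 36 bp for the 8 promoters with an ERSE, 67 bp for the 4 with ERSE-II and 116.5 bp for the 4 with TGACGTCA. As the promoters are short, such distances are small in any case. Where a window of 60 bp on each side of the summit fell inside the promoter sequence, 23 of 41 windows held ACGT, or 56.1% (interval 41.0 to 70.1). Windows of equal length in all promoters, centred at -83 bp from the TSS as were the summits at the median, held it in 16.7%, and windows at Creb3l2 summits without XBP1 in 32.5% (interval 29.8 to 35.3). Peaks away from promoters could not be searched, as no sequence of their build was at hand.

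Sites shared with Creb3l2 were mostly at promoters. Of the XBP1 peaks, 124 of 258 overlapped a Creb3l2 peak. The share was 73 of 102, or 71.6% (interval 62.2 to 79.4), at protein-coding TSSs and 43 of 131, or 32.8% (interval 25.4 to 41.3), farther away. At genes of the ER and secretory lists it was 31 of 48 peaks, or 64.6% (interval 50.4 to 76.6), and at other protein-coding TSSs 42 of 54, or 77.8% (interval 65.1 to 86.8). Among all measured protein-coding genes, 17.7% had a Creb3l2 summit within 1000 bp of a TSS, a share that counts genes and not peaks. No background share was computed for sites farther away. As Creb3l2 summits were used to place the peaks, a peak that overlaps one was more likely to be placed at a TSS.

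The summits of both factors were set side by side for the lists, without a test of the difference. Of the 17 chaperone genes with an XBP1 summit, 10 had no Creb3l2 summit, among them Hspa5, Canx, Manf, Calr, Dnajb9 and P4hb. Of the 33 other ER and secretory genes with XBP1, 26 also had Creb3l2. A gene without a Creb3l2 summit may still be bound, since the Creb3l2 peaks as listed by the authors and placed here may miss bound genes. The share of genes with a Creb3l2 summit was 43.2% (interval 28.7 to 59.1) for chaperones, which overlaps that of XBP1, but 80% (interval 60.9 to 91.1) for the COPI list, where XBP1 had 4%. These shares stand against a background of 17.7% for Creb3l2. The Creb3l2 list holds more peaks and comes from another library, so that the levels of the 2 factors cannot be compared directly.

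A group of XBP1 peaks had many tags for their fold enrichment. It was set apart by a limit of 11 on tags per kb divided by fold enrichment, chosen after the values were seen. High tags per kb beside a low fold enrichment thus follow from the limit. When tags per kb were divided by the fold enrichment, 216 peaks gave 3.23 to 10.3 tags per kb and 42 peaks gave 11.5 to 31.0. The peaks of the second group had fold enrichments of 3.8 to 7.5 while holding 65.5 to 156 tags per kb, all of them within the first 89 ranks by tags per kb. Among the first 20 ranks they are P4hb, Ddost and the peaks for which Vxn, at 36051 bp, and Msrb2, at 43594 bp, have the closest protein-coding TSS. The group also holds Rpn2, Ube2g2, Pdia5, Sdf2l1, Atf6 and Tbx19. The only overlapping peaks of the list are 1 of each kind. The peak at chr1:9626436-9628084 had 188 tags and a fold enrichment of 6.78, and that at chr1:9626408-9627990 had 86 tags and 9.93, so that the tags of these 2 peaks were not on the same scale. The rank by tags per kb is therefore uncertain for these 42 peaks. Of the 39 placed ones, 15 were at a protein-coding TSS, or 38.5% (interval 24.9 to 54.1), and 44.8% of the others were.

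**Figure D5:**
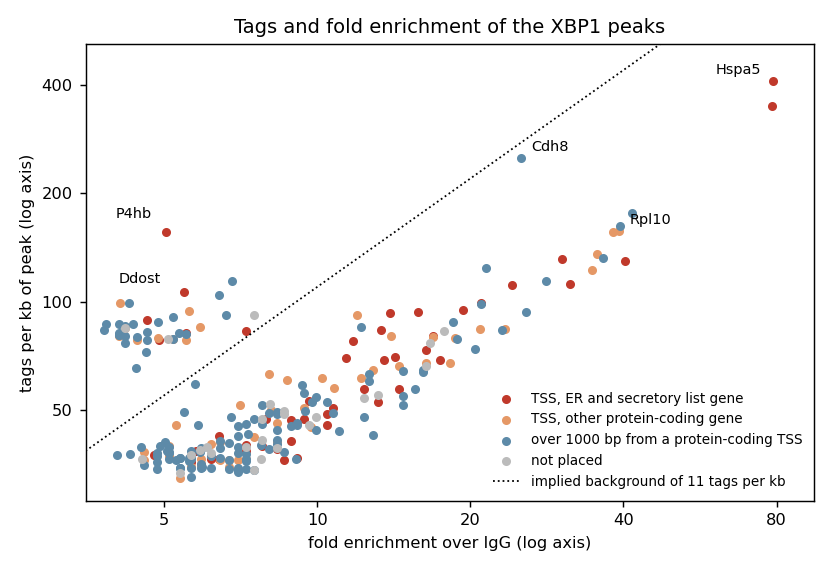
Tags per kb of each XBP1 peak against its fold enrichment over IgG, both on log axes, coloured by position as in the plot of ranks, with a dotted line where tags per kb divided by fold enrichment is 11. The 42 peaks above the line, with P4hb at 156 and Ddost at 106 tags per kb, have fold enrichments of 3.8 to 7.5. The line was set after the values were seen.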

How the data were processed

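ChIPseq of XBP1 and of FLAG-Creb3l2 was analysed from the deposited peak lists, 1 library each. The labels name Bowtie, MACS and HOMER and the build mm9. The labels give no versions, and the paper's list of software gives one for Bowtie without tying it to these files. The tag column of the deposited lists holds integers, taken here as the count of tags in a peak. The deposited score, headed as a P-value, is 10 times the negative log10 of p. The fold column is the enrichment over the control library, from the authors' MACS run. The XBP1 peaks hold 18587 tags in all. Library totals and the control libraries were not used here, and values of the 2 lists are not on 1 scale.

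Tags per kb were tags divided by length, times 1000. No mm9 genome or annotation was at hand, and no chain file. The difference between mm9 positions and GENCODE M21 (GRCm38) was estimated for each chromosome as a constant shift over stretches in which Creb3l2 summits fall at TSSs of protein-coding genes. A stretch needed 5 summits within 500 bp of a TSS, and its order along the chromosome was kept. This is an estimate, not a conversion by alignment. It gave 106 stretches, whose shifts from alternate summits differed by a median of 30 bp and at most by 375 bp. XBP1 summits were not used, but those that overlap Creb3l2 peaks are not independent of it. The smallest number of summits (5 instead of 4) and the order rule were set after a first placing had been seen. The limit of 11 tags per kb per unit of fold enrichment and the restriction of promoters to protein-coding genes were also set after values had been seen. Of the Creb3l2 summits, 528 were not placed. Peak positions are printed in mm9 and sequences in GRCm38.p6, taken from RefSeq promoters by the closest protein-coding TSS. Coordinates of the 2 builds do not match each other.

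Genes were called by a summit within 1000 bp of any protein-coding TSS, and 18766 of 21842 protein-coding genes lay in the stretches. Named were the genes closest to the 20 peaks with the most tags per kb, the 5 strongest peaks over 1000 bp from every TSS, the members of the lists at a summit, the overlapping peaks, Hspa5 and Hsp90b1. The peaks, lists and motifs were chosen with earlier results of these data known. The search for the closest TSS and the motif search were tested on simulated data. The placing was tested on simulated summits of chromosome 5, with fewer changes of shift than the 13 stretches found there. Its accuracy with so many changes was not tested. Intervals are Wilson intervals (statsmodels 0.14.6, Python 3.11.15). For a count of 0, the upper limit printed is 3 divided by the number of measured genes and not the Wilson limit.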

Additional observations from a re-analysis of the deposited data

How the results depend on the processing

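No paired analysis was possible because there is a single library for XBP1 and another for Creb3l2. The number of XBP1 peaks fell from 258 to 129 when only the stronger peaks by score, up to the median, were kept and to 72 at a fold enrichment of at least 10, by construction of these limits. The share of summits at a TSS, 50.6%, was 27.0% within 100 bp, 57.5% within 2500 bp, 43.8% with protein-coding genes only and 33.3% without peaks that overlap a Creb3l2 peak. With ACGT near the summit, 56.1% became 25.5% within 25 bp and 72.7% within 100 bp. The overlap with Creb3l2, 48.1%, was 28.7% for summits within 100 bp and 39.5% for these stronger peaks of both lists. The 50 genes of the ER and secretory lists became 28 within 100 bp and 31 for the stronger peaks. Asking for 3 flanking summits at a TSS, 4 summits per stretch, and leaving out the 42 peaks with more tags per fold were chosen after the data were seen, as was leaving out the peaks shared with Creb3l2. The first gave 56.5% of summits at a TSS. The causes of these changes were not tested beyond the limits themselves. ACGT was searched only inside RefSeq promoters, and the comparison with windows over the genome was not run. Without replicates and with the library totals not used here, what depth could still reveal was not assessed.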
